A study of Mus musculus with 2 samples.

Results

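The genes described here encode the ligands and receptors of axon guidance: semaphorins, ephrins, Slits and netrins, and the plexins, neuropilins, Eph receptors, Robos and Unc5 receptors that bind them. They were chosen by symbol from the protein-coding genes of the GENCODE M21 annotation of the mouse genome (GRCm38), which gave 78 members of 21951 genes. The symbol pattern also takes in 8 genes that are named like guidance genes but are not classical members (6 Slitrk genes, Unc5cl and Unc50), and these are described apart. TET2 peaks were collected from 1 ChIP-seq library of adipocytes, with 1 input library, chromatin that was not immunoprecipitated, as the background. Both libraries came from adipose-derived stem cells (ASCs) of mouse inguinal white adipose tissue, used at passage 3 and turned into adipocytes in vitro with IBMX, dexamethasone and insulin. No other genotype, treatment or time was profiled, the age and strain of the donor mice for these libraries are not given in the sources used here, and cells kept in culture lack the nerve endings of fat tissue. The list holds 14103 peaks, intervals in which TET2 fragments exceeded the input, each with the −log10 p that the peak caller of the authors gave it. No expression was measured, so the identity of the cells could not be checked against marker levels. Of 8 adipocyte genes examined (Adipoq, Fabp4, Plin1, Pparg, Cebpa, Lep, Lipe and Cd36) 1 carried a promoter peak, Lep, against 24.6% of all protein-coding genes. Lep was also the only 1 of the 8 with any peak, and 36.4% of all protein-coding genes had one.

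Axon guidance proteins steer growing neurites by attraction or repulsion. Class 3 semaphorins are secreted and signal through neuropilins and plexins, ephrins are tethered to the cell surface and bind Eph receptor tyrosine kinases, Slits bind Robos, and netrins bind Dcc, neogenin and the Unc5 receptors. Outside the nervous system the same families act in vessel growth, cell sorting and cell migration. TET2 is a dioxygenase that oxidises 5-methylcytosine to 5-hydroxymethylcytosine, mostly at CpG dinucleotides, and is brought to DNA by partner proteins, so the CpG content of its binding regions is given throughout.

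The sequences below are the centres of the peaks on which the description turns, written 5′ to 3′ on the strand of the gene (GRCm38), with each CpG dinucleotide in capitals. The set shows the strongest peak, a CpG-dense promoter, the strongest peak inside a gene body, a peak over a coding exon, a repeat and most of a microRNA hairpin. Exonic sequence that is not translated was left out, which shortened the Sema6d and Plxnb2 windows.
Unc5a, coding exon 13, chr13:55003484-55003684: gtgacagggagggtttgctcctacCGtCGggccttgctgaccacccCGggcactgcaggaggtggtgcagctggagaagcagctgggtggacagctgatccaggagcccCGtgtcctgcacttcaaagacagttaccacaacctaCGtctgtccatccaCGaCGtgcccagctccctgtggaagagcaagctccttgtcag
Unc5a, coding exon 7, chr13:54997929-54998129: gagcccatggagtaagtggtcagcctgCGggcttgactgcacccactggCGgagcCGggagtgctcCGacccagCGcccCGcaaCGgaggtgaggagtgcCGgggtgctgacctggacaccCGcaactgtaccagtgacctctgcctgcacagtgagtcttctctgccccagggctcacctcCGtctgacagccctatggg
Unc5a, start of intron 2, chr13:54991026-54991226: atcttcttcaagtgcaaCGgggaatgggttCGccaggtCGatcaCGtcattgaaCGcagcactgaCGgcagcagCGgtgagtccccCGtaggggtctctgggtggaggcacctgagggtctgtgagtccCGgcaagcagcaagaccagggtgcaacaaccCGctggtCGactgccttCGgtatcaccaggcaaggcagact
Sema4d, intron 1, chr13:51792853-51793053: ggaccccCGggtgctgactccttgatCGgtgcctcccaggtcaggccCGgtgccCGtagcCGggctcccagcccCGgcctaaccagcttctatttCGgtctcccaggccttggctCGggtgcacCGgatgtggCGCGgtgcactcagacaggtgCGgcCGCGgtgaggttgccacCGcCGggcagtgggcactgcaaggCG
Sema6d, at the TSS of Sema6d-201, chr2:124610194-124610295: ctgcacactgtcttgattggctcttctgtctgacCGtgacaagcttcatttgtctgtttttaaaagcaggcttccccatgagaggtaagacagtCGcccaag
Plxnb2, intron 1, chr15:89180526-89180664: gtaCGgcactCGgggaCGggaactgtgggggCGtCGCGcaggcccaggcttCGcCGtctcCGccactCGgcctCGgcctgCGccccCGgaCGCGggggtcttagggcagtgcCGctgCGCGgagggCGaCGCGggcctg
Ntn1, intron 6, chr11:68233643-68233843: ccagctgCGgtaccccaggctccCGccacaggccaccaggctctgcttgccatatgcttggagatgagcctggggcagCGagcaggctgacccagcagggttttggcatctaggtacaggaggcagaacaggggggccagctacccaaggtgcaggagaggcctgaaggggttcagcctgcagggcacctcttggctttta
Epha6, intron 3, chr16:60249519-60249719: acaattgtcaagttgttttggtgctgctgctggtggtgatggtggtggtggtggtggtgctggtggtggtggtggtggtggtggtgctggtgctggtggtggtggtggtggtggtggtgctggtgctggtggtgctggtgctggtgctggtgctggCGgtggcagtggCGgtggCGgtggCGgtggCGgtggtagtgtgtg
Slit3, intron 14 with both mature arms of Mir218-2, chr11:35616839-35617039: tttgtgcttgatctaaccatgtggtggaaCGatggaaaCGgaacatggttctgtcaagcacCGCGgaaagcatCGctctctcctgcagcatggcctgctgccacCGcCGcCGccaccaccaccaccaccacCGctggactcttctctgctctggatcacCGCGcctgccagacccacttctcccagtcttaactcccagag
These windows held 7, 10, 12, 17, 2, 21, 3, 5 and 11 CpG dinucleotides in that order. The Sema6d window holds only bases upstream of the TSS. Its whole peak held 47 CpG dinucleotides, with an observed over expected CpG ratio of 0.81. The Sema4d and Plxnb2 promoter windows were the richest, the intron window of Ntn1 held few CpGs in spite of a GC content of 63.2%, and the Epha6 window was mostly a GGT repeat. Labels give the place of the midpoint. The Unc5a window at intron 2 opens with the end of exon 2, and much of its CpG content lies there. The window of exon 13 opens, and that of exon 7 ends, in intron sequence of the reference transcript.

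A peak was assigned to a gene by its midpoint. It was called a promoter peak when the midpoint lay within 1 kb of any annotated TSS (transcription start site) of the gene, a flanking peak when it lay 1 to 3 kb from the nearest TSS, and a gene body peak when it lay inside the gene and over 3 kb from every TSS. Of the 78 members, 51 carried at least 1 peak, or 65.4% (exact 95% binomial interval 53.8% to 75.8%), against 36.4% of all protein-coding genes. A promoter peak was present in 33 members (42.3%, 31.2% to 54.0%), against 24.6% of all protein-coding genes. Flanking peaks were found in 7 members (8.97%, 3.68% to 17.6%), against 5.05%, which lies inside that interval, and with the TSSs of protein-coding transcripts only the count fell to 3 (3.85%, against 3.83%). Gene body peaks were found in 30 members (38.5%, 27.7% to 50.2%), against 13.0%. There were 82 member peaks in all, 35 at promoters, 8 flanking and 39 in gene bodies, and each belonged to a single member. Most of the 51 held a single peak, with 31 members holding 1 peak, 14 holding 2 and 6 holding 3 or more. Promoter and gene body peaks occurred together in 15 members, and another 15 had a gene body peak without a promoter peak. With 1 library there was no replicate, so no difference was tested, and intervals here and below cover counting error only.

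**Figure D1:**
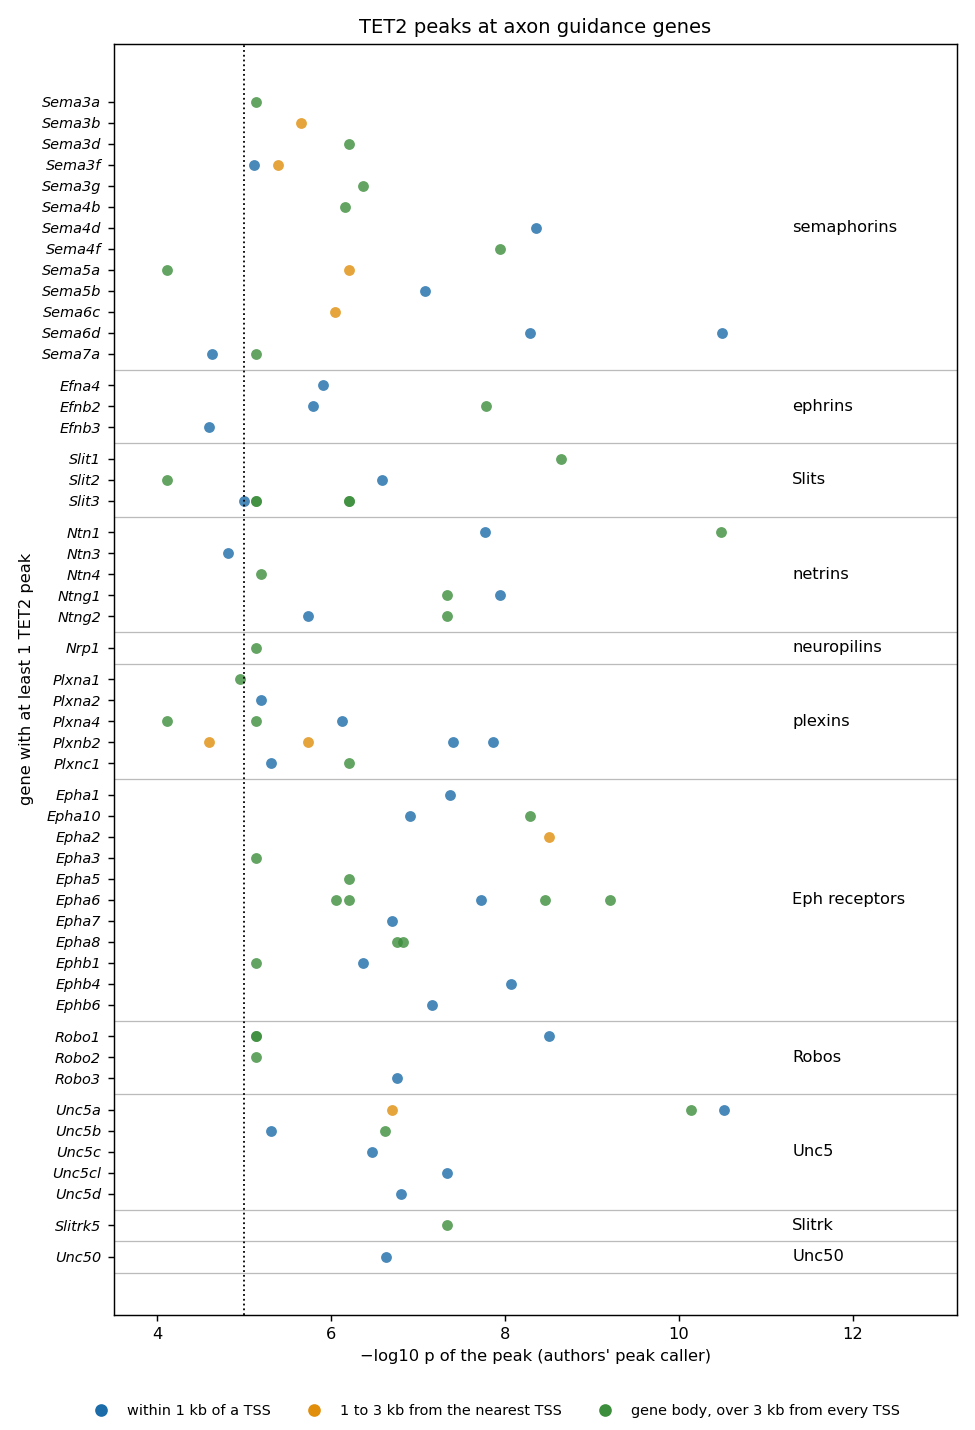
The −log10 p of every TET2 peak at the 51 members with at least 1 peak, grouped by family, with 1 point per peak coloured by its distance class and a dotted line at 5. Unc5a, Sema6d and Ntn1 held the peaks above 10, and the flanking peaks lie between 4.60 and 8.50.

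Guidance genes are long, with a median length of 39.9 kb against 17.4 kb over all protein-coding genes, and a longer gene offers more room for a peak. In genes over 100 kb, 18 of 32 members had a gene body peak (56.2%, 37.7% to 73.6%), against 46.0% of all genes of that length, which lies inside the interval. Between 25 and 100 kb, 9 of 16 members had one (56.2%, 29.9% to 80.2%), against 17.2%. Under 25 kb, 3 of 30 had one (10.0%, 2.11% to 26.5%), against 4.70%. Counted per length, the members had 3.76 gene body peaks per Mb (39 peaks in 10.4 Mb, exact 95% Poisson interval 2.67 to 5.14), against 4.47 per Mb over all protein-coding genes. The density was 22.5 per Mb (10.8 to 41.4) in members of 25 to 100 kb against 5.31, and 2.66 per Mb (1.74 to 3.90) in members over 100 kb against 3.48. Under 25 kb it was 18.7 per Mb (3.86 to 54.7, from 3 peaks) against 11.2. The members were thus above all genes in density below 100 kb and below them over 100 kb. Of these intervals, only that for 25 to 100 kb excluded the value over all genes. Genes over 100 kb held 9.77 of the 10.4 Mb of the members.

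Promoter peaks were set beside the number of annotated TSSs and the CpG content of the promoter in the same way. Among members with 1 or 2 TSSs, 5 of 19 had a promoter peak (26.3%, 9.15% to 51.2%), against 15.4% of all such genes. With 3 to 5 TSSs it was 16 of 32 (50.0%, 31.9% to 68.1%), against 26.0%, and with 6 or more TSSs 12 of 27 (44.4%, 25.5% to 64.7%), against 36.5%. Of these intervals, that for 3 to 5 TSSs lay above the share over all genes and the others included it. CpG-rich promoters, with an observed over expected CpG ratio of at least 0.6 in the 500 bp each side of a TSS, were found in 61 members, and 27 of these had a promoter peak (44.3%, 31.5% to 57.6%), against 39.2% of all CpG-rich genes. The other 17 members had promoters below that ratio, and 6 of them (Efnb3, Epha1, Epha6, Ntn3, Robo3 and Unc5cl) had a promoter peak (35.3%, 14.2% to 61.7%), against 8.40%. Among CpG-rich promoters the members were therefore close to other genes, and the gap was wider in the few CpG-poor members. The promoter ratios of these 6 were 0.57, 0.52, 0.56, 0.48, 0.58 and 0.31, so most lay not far under the limit. The peaks at Efnb3, Epha1, Ntn3 and Robo3 themselves had ratios of 0.69, 0.62, 0.61 and 0.78. The share of 8.40% is over genes with any ratio below 0.6, and genes of like ratio were not compared.

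**Figure D2:**
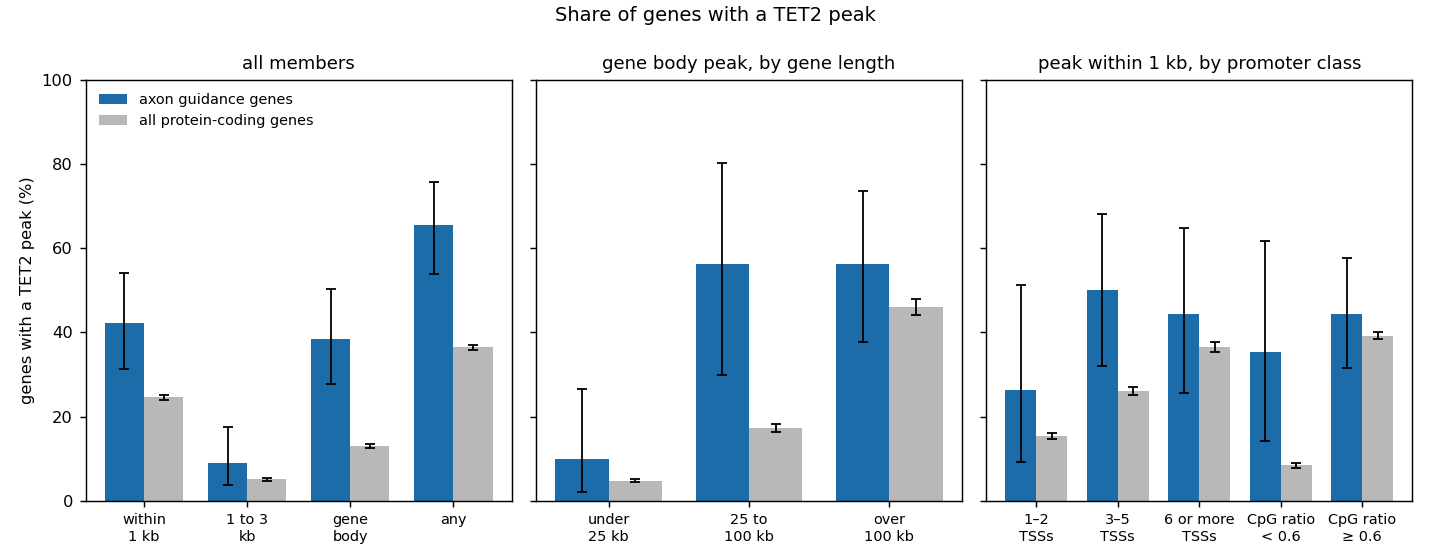
Share of the 78 members (blue) and of all 21951 protein-coding genes (grey) with a TET2 peak, in percent, by distance class, by gene length for gene body peaks, and by number of TSSs and promoter CpG ratio for promoter peaks. Error bars are exact 95% binomial intervals; the members lie above all genes in every class shown, and several of the intervals include the grey value.

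Semaphorins were the largest ligand family, with 13 of 20 genes carrying a peak, 5 of them at a promoter. The strongest was at Sema6d, a transmembrane semaphorin that binds plexins of the A class. Its peak at chr2:124610014-124610575 had a −log10 p of 10.49 and its midpoint lay 2 bp upstream of the TSS of Sema6d-201, a protein-coding transcript that starts 520 kb downstream of the annotated 5′ end of the gene. A further Sema6d peak, at chr2:124090499-124091195, had a −log10 p of 8.28 and lay 878 bp downstream of that 5′ end, so this 578 kb gene carried a promoter peak at its 5′ end and another far inside it. Sema4d, a membrane semaphorin with plexins of the B class as receptors, had a peak with a −log10 p of 8.36 in intron 1 (chr13:51792750-51793157), 711 bp downstream of a TSS. Sema5b had a promoter peak of 7.07 in coding exon 14, at an internal TSS 119 kb from the 5′ end. Those at Sema3f (5.12) and Sema7a (4.63) were weaker and lay in the CpG-rich start of the gene, with CpG ratios of 0.90 and 0.95.

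Flanking peaks occurred in 4 of the 20 semaphorin genes, against 5.05% of all protein-coding genes, and 3 of these peaks lay in the last exon. They were found in coding exon 20 of 20 of Sema6c (−log10 p of 6.04, chr3:95172402-95173860), exon 20 of 20 of Sema3b (5.65, chr9:107598653-107599211) and exon 18 of 18 of Sema3f (5.39, chr9:107682526-107682917). The Sema6c peak was 1459 bp long, had a GC content of 71.8% and held 150 CpG dinucleotides, the longest and most CpG-laden of the 82 member peaks. The fourth gene, Sema5a, had a peak of 6.21 in intron 11 (chr15:32598682-32599056), of which 57.9% was repeat-masked. In all 4 genes the TSS nearest to the flanking peak was that of a transcript not annotated as protein-coding. These peaks lay 10.3 to 354 kb from the 5′ end of their gene. Gene body peaks were present in Sema4f, Sema3g, Sema3d, Sema4b, Sema3a, Sema7a and Sema5a. That of Sema4f (7.94, chr6:82913701-82914111) also lay in the last exon, exon 14 of 14, and that of Sema3g, which encodes a secreted class 3 semaphorin, in coding exon 14 of 16 (6.36). Those of Sema3d (6.21), Sema4b (6.16), Sema3a and Sema7a (5.13 each) and Sema5a (4.12) were intronic.

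Ephrins were the guidance ligands with the fewest peaks, in 3 of 8 genes (37.5%), close to the 36.4% of all protein-coding genes. Their median length was 9.97 kb, and 26.3% of all protein-coding genes under 25 kb had a peak. Efna4, which encodes a GPI-anchored ephrin, had a promoter peak with a −log10 p of 5.91 at 229 bp downstream of its TSS. Efnb2 and Efnb3 encode transmembrane ephrins. Efnb2 had a promoter peak of 5.79 over its exon 1, with a GC content of 73.6% and a CpG ratio of 0.97, and a stronger peak of 7.78 in the untranslated part of its exon 5 of 5 (chr8:8620188-8620829). The Efnb3 peak, at 4.60, lay 112 bp upstream of its single TSS. The 5 ephrins without a peak were Efna1, Efna2, Efna3, Efna5 and Efnb1, of which Efnb1 is X-linked.

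All 3 Slit genes, which encode large secreted proteins that bind Robos, carried a gene body peak. Each is over 100 kb long, and 46.0% of all protein-coding genes of that length had one. Slit1 had a single peak, of 8.64, in coding exon 37 of 37 (chr19:41600266-41600774), at 143 kb from its 5′ end. Slit2 had a promoter peak of 6.59 over exon 1 and an intronic peak of 4.12. Slit3 had 5 peaks over 587 kb with −log10 p between 5.00 and 6.21, and all were intronic. Its promoter peak, at chr11:35544434-35544873, lay 32 bp upstream of the start of Slit3-202, 423 kb from the 5′ end, and the annotated 5′ end itself had none.

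One Slit3 peak, at chr11:35616752-35617126 with a −log10 p of 5.13, contained the whole hairpin of the microRNA gene Mir218-2 (chr11:35616816-35616925), which is transcribed on the same strand from intron 14. The mature sequences of this hairpin in RefSeq are given here with the seed, bases 2 to 8, in capitals.
mmu-miR-218-5p: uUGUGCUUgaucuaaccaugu
mmu-miR-218-2-3p: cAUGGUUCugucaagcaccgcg
Of 12 microRNA genes that lie inside a member gene, this was the 1 that lay wholly in a peak, and over the annotation 42 of 2202 microRNA genes did so (1.91%, 1.38% to 2.57%). Mir218-1, the copy of the gene inside Slit2, lay 65408 bp from the nearest peak.

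Netrin genes had a peak in 5 of 6 cases (83.3%, against 36.4% of all protein-coding genes), 4 of them at a promoter (66.7%, against 24.6%). Their median length was 82.5 kb. Of all protein-coding genes of 25 to 100 kb, 44.9% had any peak and 31.3% a promoter peak. Ntn1, which encodes the secreted ligand of Dcc and Unc5 receptors, held the strongest peak of the ligands inside a gene body. It had a −log10 p of 10.48, lay in intron 6 of an 8-exon transcript (chr11:68233499-68233987), 153 kb from the nearest TSS, and had a GC content of 62.4% but a CpG ratio of 0.19. The promoter peak of Ntn1 (7.77, chr11:68386828-68387278) lay 41 bp upstream of an internal TSS 13.8 kb from the 5′ end and had a CpG ratio of 0.92. Ntng1 and Ntng2 encode GPI-anchored netrin-like proteins that do not bind Dcc. Ntng1 had a promoter peak of 7.94 (chr3:110142277-110142801) and an intronic peak of 7.34 that was 86.7% repeat-masked, and Ntng2 had a promoter peak of 5.73 and a peak of 7.34 in coding exon 2. Ntn3 had a weak promoter peak (4.82), Ntn4 an intronic peak (5.19), and Ntn5 none.

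Among the receptors, plexins carried a peak in 5 of 9 genes (55.6%) and neuropilins, the co-receptors of class 3 semaphorins, in 1 of 2 (50.0%). The share over all protein-coding genes was 36.4%. Plxnb2 was the plexin with the most peaks, 4 within 25.2 kb. At its 5′ end the peak in intron 1 (chr15:89180360-89180893) had a −log10 p of 7.40, lay 162 bp downstream of the TSS and had a CpG ratio of 0.87. A promoter peak of similar height (7.86, chr15:89160956-89161473) lay in intron 20, at the start of a transcript with a retained intron, 19.6 kb downstream. The flanking peaks of Plxnb2 were at 5.74 in intron 1 (chr15:89173288-89173662) and at 4.60 in coding exon 4 (chr15:89167509-89167954). Plxna4, a receptor for class 3 and class 6 semaphorins, had 3 peaks over 444 kb, of which that at the promoter (6.12) had the highest GC content of the member peaks, 79.7%. Its intronic peaks were at 5.13 and 4.12. Plxna2 and Plxnc1 had promoter peaks of 5.19 and 5.31, and Plxnc1 and Plxna1 had intronic peaks of 6.21 and 4.95. The Plxnc1 promoter peak was the one nearest to the limit of its class, at 994 bp from the TSS, and the closest peak outside that limit was in Unc5a at 1490 bp. Nrp1 had an intronic peak of 5.13. Without a peak were Nrp2, Plxna3, Plxnb1, Plxnb3 and Plxnd1, and of these Plxna3 and Plxnb3 are X-linked.

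Eph receptors carried a peak in 11 of 14 genes (78.6%, against 36.4% of all protein-coding genes), 7 of them at a promoter (50.0%, against 24.6%). Their median length was 92.4 kb. Of all protein-coding genes of 25 to 100 kb, 44.9% had any peak and 31.3% a promoter peak. Over 100 kb these shares were 68.3% and 39.6%. Ephb4, the receptor of ephrin-B2 that marks veins, had the strongest promoter peak of the family, with a −log10 p of 8.06 over its exon 1 (chr5:137350060-137350565). It was followed by Epha6 (7.72, chr16:60606241-60606646), 912 bp upstream of the TSS, and Epha1 (7.37, chr6:42372914-42373288) in intron 1. The promoter peaks of Ephb6 (7.16), Epha10 (6.90), Epha7 (6.70) and Ephb1 (6.36) lay 353, 112, 589 and 549 bp downstream of a TSS. Ephb6 and Epha10 encode receptors that lack kinase activity. Epha2, a receptor found widely in epithelia, had the strongest flanking peak of the members, 8.50 in intron 3 (chr4:141311553-141311970), 2867 bp from the nearest TSS and with a CpG ratio of 0.15.

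Epha6 is the longest member, 952 kb, and had 4 gene body peaks, all intronic. These had a −log10 p of 9.20 (chr16:60436433-60436862, 97.0% repeat-masked), 8.46 (chr16:60249409-60249829, 65.8%), 6.21 (72.5%) and 6.06 (49.1%). The larger values of this gene were thus in repeat-masked sequence, and what repeats contribute to these peaks was not tested. Gene body peaks elsewhere in the family were exonic in Epha10 (8.28, chr4:124912969-124913351) and Epha8, where coding exons 3 and 4 held peaks of 6.76 and 6.82. They were intronic in Epha5 (6.21), Epha3 and Ephb1 (5.13 each). Epha4, Ephb2 and Ephb3 had no peak.

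Robo1, a Slit receptor, had a promoter peak of 8.50 (chr16:72663065-72664131) over exon 1 of its reference transcript, 355 kb from the annotated 5′ end, and a pair of intronic peaks of 5.13. The Robo1 promoter peak was 1067 bp long with 70 CpG dinucleotides. Robo3 had a promoter peak of 6.76 in coding exon 2, Robo2 an intronic peak of 5.13, and Robo4, which is expressed in endothelium, none.

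The 4 Unc5 receptor genes, which encode netrin receptors with an intracellular death domain, all had a promoter peak, against 24.6% of all protein-coding genes. Unc5a carried the strongest of all member peaks, with a −log10 p of 10.51 at chr13:55003289-55003880, and 6.70% of the deposited peaks had a larger value. This peak lay in coding exon 13 of 16, 96 bp upstream of the TSS of the short protein-coding transcript Unc5a-204 and 54.2 kb from the 5′ end, and it had a CpG ratio of 0.45. Unc5a also had a peak of 10.13 with its midpoint at the start of intron 2 (chr13:54990908-54991345) and one of 6.70 in coding exon 7 (chr13:54997802-54998256). The peak of 10.13 also covered most of exon 2. The 5′ end of Unc5a had no peak. The promoter peaks of Unc5d (6.80), Unc5c (6.47) and Unc5b (5.31) differed from that of Unc5a in place and composition: they lay within 1 kb of the 5′ end of the gene, and their CpG ratios were 0.70, 0.79 and 1.03. Unc5b also had a peak of 6.62 in coding exon 16 of 17.

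**Figure D3:**
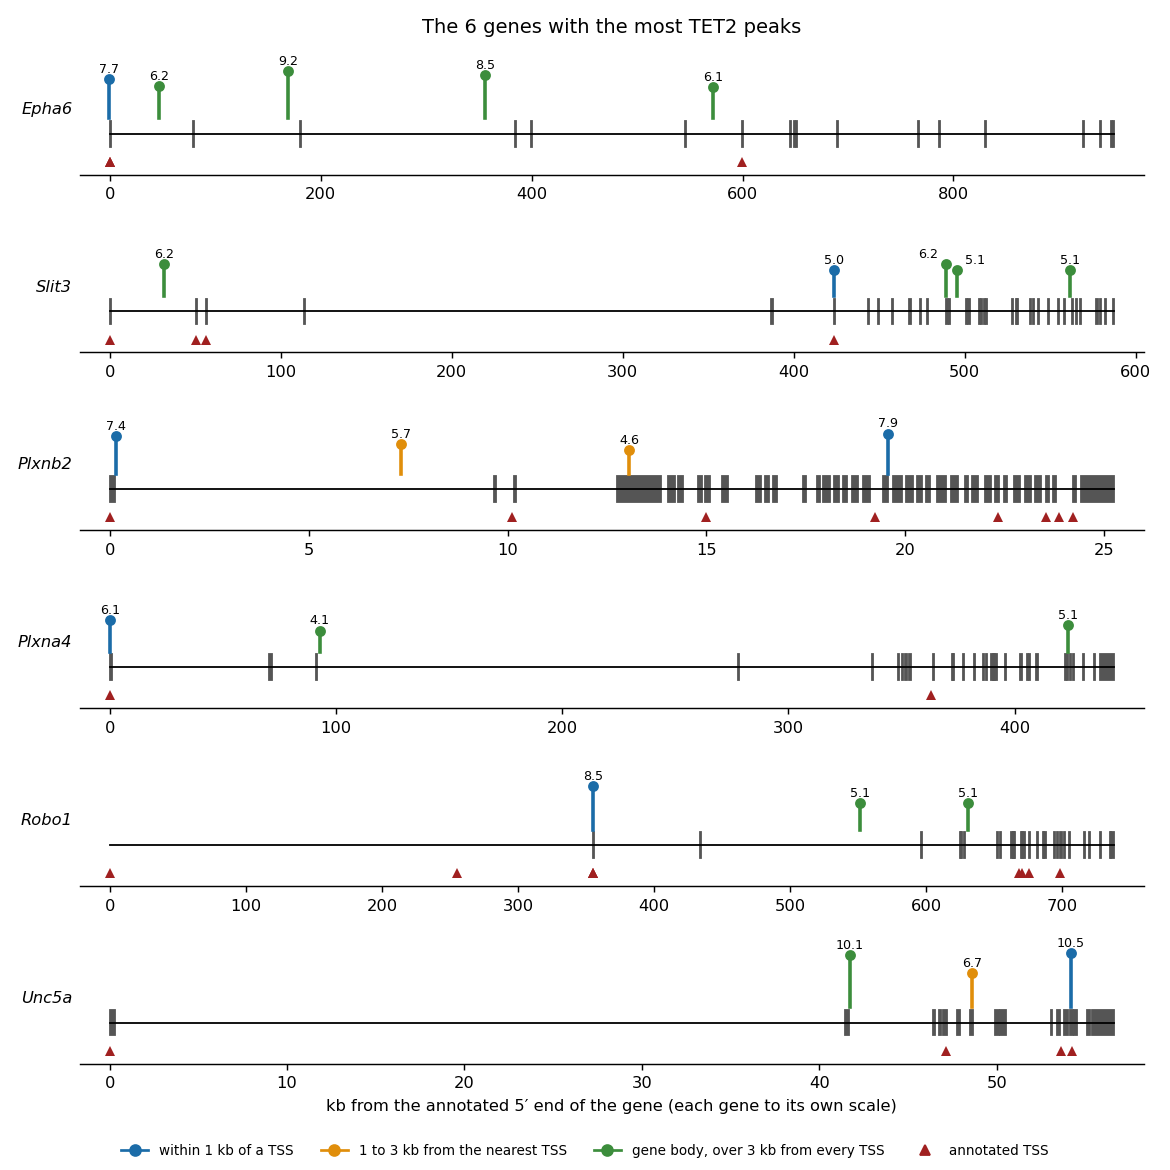
Maps of the 6 members with 3 or more TET2 peaks, in kb from the annotated 5′ end of each gene, each to its own scale. Dark bars are exons of the reference transcript, triangles are annotated TSSs, and stems mark peak midpoints with the −log10 p as height and number. In Slit3, Robo1 and Unc5a no peak lies at the annotated 5′ end, and in Epha6, Plxnb2 and Plxna4 one does.

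Of the 8 genes that share only the naming pattern, 3 carried a peak. Unc5cl, which encodes a protein with a death domain and no netrin-binding part, had a promoter peak of 7.34 in coding exon 4. Unc50, which encodes an unrelated membrane protein, had a promoter peak of 6.63 at chr1:37429753-37430512, 7 bp from its own TSS and 29 bp from that of Coa5, so the gene to which it belongs cannot be told apart. Of the Slitrk genes, which encode synaptic adhesion proteins, Slitrk5 had a peak of 7.34 in coding exon 2 of 2, while Slitrk1, Slitrk2, Slitrk3, Slitrk4 and Slitrk6 had none. The semaphorins without a peak were Sema3c, Sema3e, Sema4a, Sema4c, Sema4g, Sema6a and Sema6b. All 5 members on the X chromosome (Efnb1, Plxna3, Plxnb3, Slitrk2 and Slitrk4) were among those without a peak, which with so few genes allows a share of up to 52.2% (exact binomial bound), and over all protein-coding genes of the X chromosome 115 of 948 had a peak (12.1%, 10.1% to 14.4%).

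By role, 24 of 37 ligand genes (64.9%) and 24 of 33 receptor genes (72.7%) carried at least 1 peak (all protein-coding genes, 36.4%). A promoter peak was present in 14 ligand genes (37.8%) and 17 receptor genes (51.5%), against 24.6%. Several known pairs of ligand and receptor had a promoter peak at both genes, among them Efnb2 with Ephb4, Slit2 and Slit3 with Robo1, Sema6d and the A-class plexin Plxna4, and Ntn1 with each of Unc5a to Unc5d. Others had none, such as Sema3e and Plxnd1, without a peak at either gene. These are examples picked after the values had been seen. Not all pairs were counted, so whether both genes of a pair had a peak more often than their separate shares give was not tested. The promoter peaks of Slit3, Robo1, Ntn1 and Unc5a lay over 1 kb from the 5′ end of the gene. The other genes of the guidance pathways, a list of 58 further ligands, receptors, adaptors and effectors such as Draxin, Dcc and the srGAPs, had a promoter peak in 22 cases (37.9%, 25.5% to 51.6%), against 24.6% of all protein-coding genes. A flanking peak was found in 6 of them (10.3% against 5.05%), a gene body peak in 14 (24.1%, 13.9% to 37.2%, against 13.0%) and any peak in 38 (65.5%, 51.9% to 77.5%, against 36.4%). Many of the 58 are long, and they were not set beside genes of like length. Of all protein-coding genes over 100 kb, 39.6% had a promoter peak, 46.0% a gene body peak and 68.3% any peak. The netrin receptor Neo1 was among those with a promoter peak (5.39), while Dcc had a gene body peak (8.36).

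Promoter peaks of the members sat mostly just downstream of a TSS. The midpoint lay downstream in 24 of 35 cases and upstream in 11, or 68.6% downstream against 67.3% over all protein-coding genes, and the median distance was 229 bp against 172 bp. Members differed more in which TSS was marked: 12 of the 35 peaks lay over 1 kb from the annotated 5′ end of the gene (34.3%, 19.1% to 52.2%), against 21.6%, a value inside the interval. These 12 were in Unc5a, Sema6d, Robo1, Ntng1, Plxnb2, Ntn1, Unc5cl, Sema5b, Epha10, Robo3, Plxna2 and Slit3, and they included 6 of the 12 strongest promoter peaks. When the 5′ end alone was taken as the TSS, 23 members had a promoter peak (29.5%, 19.7% to 40.9%), against 20.1% of all genes, which lies inside the interval. With the TSSs of RefSeq it was 25 members (32.1%, 21.9% to 43.6%), against 23.7%. Another gene started within 1 kb of 7 promoter peaks, those of Efna4, Efnb2, Epha6, Ntn3, Ntng2, Unc5c and Unc50, and Coa5 was the only protein-coding one.

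**Figure D4:**
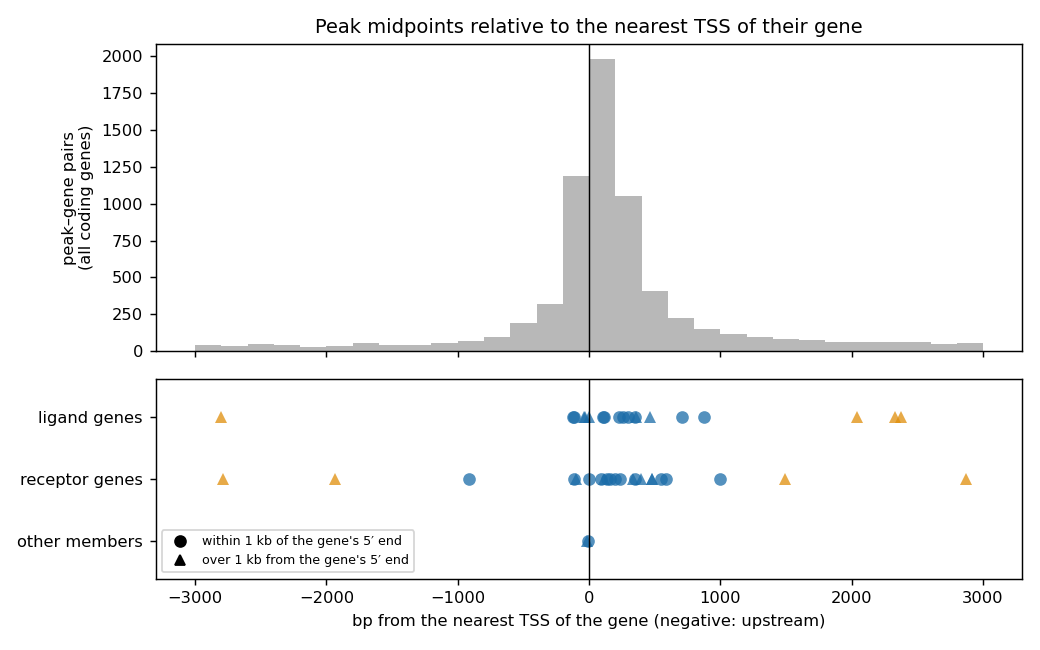
Distance in bp from the nearest TSS of the gene to the peak midpoint, for the promoter and flanking peaks of all protein-coding genes (upper panel, histogram) and of the members by role (lower panel, 1 symbol per peak, triangles for peaks over 1 kb from the 5′ end of the gene). Member promoter peaks (blue) lie mostly between the TSS and 600 bp downstream, with 24 of 35 downstream.

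The gene body peaks divided by place. Of 39, 9 lay in coding exons, 1 in an untranslated exon and 29 in introns. Counted per length, coding exons of the members held 66.8 peaks per Mb (30.6 to 127), against 50.0 over all protein-coding genes, and introns 2.90 per Mb (1.94 to 4.16), against 3.11. The coding-exon peaks had a median −log10 p of 7.34 and a GC content of 56.7% to 65.2%, and none was repeat-masked over 50% of its length. The intronic peaks had a median −log10 p of 5.13, against 6.21 for intronic peaks over all genes, and a median GC content of 48.0%, and 11 of 29 were masked over at least 50% of their length (37.9%, against 32.0% of intronic peaks over all genes). Intervals of 375 bp, the shortest in the deposited list, made up 17 of the 29 intronic peaks (58.6%, against 40.2%) and 2 of the 9 in coding exons. The value 5.13 itself recurred in 11 member peaks, all in gene bodies, and in 10.6% of the deposited list, and 6.21 recurred in 7 member peaks and in 8.62% of the list, so many intronic peaks of these long genes could not be ranked against each other. Exonic peaks outside promoters fell in the last exon of the reference transcript in 7 of 15 cases (46.7%, 21.3% to 73.4%), those of Efnb2, Sema3b, Sema3f, Sema4f, Sema6c, Slit1 and Slitrk5, against 48.8% over all genes.

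The member peaks were no higher than others of their class. The median −log10 p was 6.76 at promoters against 6.83 over all protein-coding genes, 5.89 against 6.53 in the flanks, and 6.21 in gene bodies in both sets. Values of at least 10 made up 5.71% of the member promoter peaks against 10.7% over all genes, and 5.13% of the gene body peaks against 8.26%. These high values were found in Unc5a, Sema6d and Ntn1. A further 8 member peaks had values under 5, a p above the 1e-05 that the methods of the study state as the setting. They made up 8.57% of the member promoter peaks (10.9% over all genes), 12.5% of the flanking peaks (14.1%) and 10.3% of the gene body peaks (17.3%). In composition, promoter peaks stood apart from the rest: their median GC content was 66.4% and their median CpG ratio 0.74, and 27 of 35 were CG-rich, with a GC content of at least 50% and a CpG ratio of at least 0.6 (77.1%, against 79.3% over all genes). Flanking peaks were CG-rich in 4 of 8 cases and gene body peaks in 3 of 39 (7.69%, against 16.9%), those of Epha8, Ntng2 and Slitrk5, all in coding exons.

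**Figure D5:**
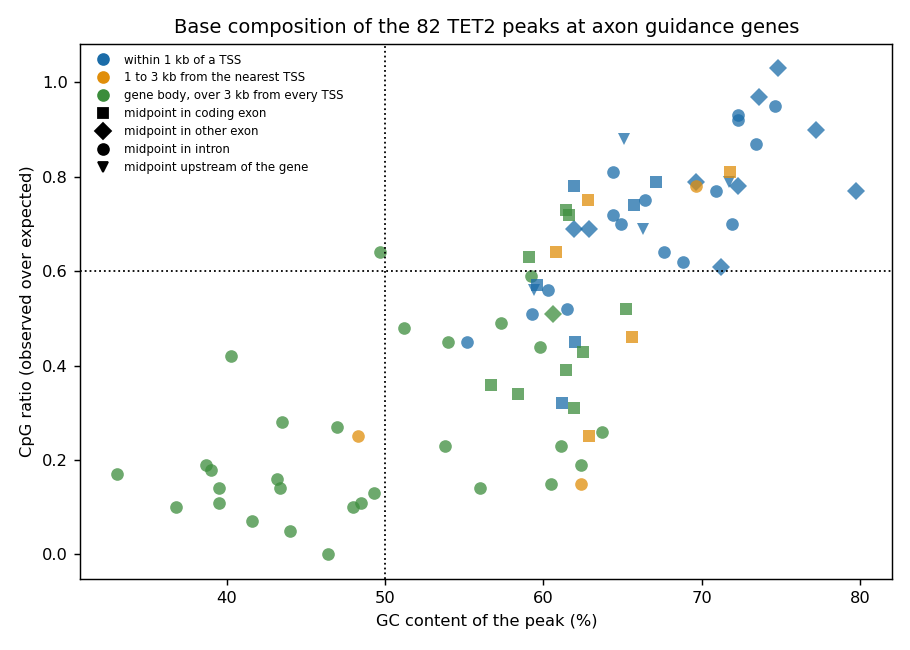
GC content (percent) and observed over expected CpG ratio of the 82 member peaks, with 1 symbol per peak, colour for distance class and shape for the place of the midpoint. Dotted lines mark 50% and 0.6; promoter peaks gather in the upper right, and the intronic gene body peaks spread to the lower left, down to a CpG ratio of 0.00 in Sema3d.

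Motif letters were searched on both strands in the 100 bp each side of the midpoint, and matches of different motifs may overlap. GGGCGG, the core of SP1 sites, occurred in 14 of 35 member promoter peaks (40.0%, against 47.0% over all genes). GCCNNNGGC, the pattern of AP-2 factors, occurred in 8 (22.9%, against 27.9%), and TTNNGCAA, the pattern of C/EBP factors, in 1, that of Efna4 (2.86%, against 2.55%). In the 39 gene body peaks GGGCGG occurred in 3 (7.69%, against 14.3% over all genes), GCCNNNGGC in 9 (23.1%, against 15.2%) and TTNNGCAA in 3 (7.69%, against 4.49%). Unc5b and Sema3f were among the promoters that held both GGGCGG and GCCNNNGGC, while the Unc5a, Sema6d and Sema4d promoter peaks held none of the 3. A match is a run of letters and not a measured binding site.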

How the data were processed

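TET2 ChIP-seq was done on adipocytes differentiated from ASCs, in a single TET2 library (n = 1) and a single input library. Reads were quality-trimmed and mapped with bowtie1 by the authors, who called peaks on the TET2 library over the input with MACS2 2.1.0. The deposited list gives each interval and its −log10 p, and it holds neither read totals nor fragments per peak, so depth is unknown. The submitters' processing notes name mm10 and the methods GRCm39. GRCm38 was used without conversion of coordinates, since 0 midpoints lay in its gaps and 0 peaks ran past a chromosome end. This check was not run on GRCm39, so it does not tell the builds apart. Peaks were placed by midpoint on GENCODE M21. Repeat masking was that of the reference genome. MicroRNA genes were those of GENCODE M21, and the mature microRNA sequences and a further set of TSSs came from RefSeq. Shares have exact binomial and densities exact Poisson intervals (95%, scipy 1.17.1), and no p-value was computed. Scripts used Python 3.11.15, numpy 2.4.6, pandas 2.3.3, pysam 0.24.0 and matplotlib 3.10.9, and placement was tested on simulated data.

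The members, lists and classes were chosen with earlier results of these data known. Genes were named by rule: the 12 largest −log10 p at promoters, the 6 largest in flanks and the 8 largest in gene bodies, the 6 members with most peaks, and every member without a peak. Other members were named, to complete their families, after their values had been seen. Alternatives were other TSS sets, windows, thresholds, repeat filters and member lists.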

Additional observations from a re-analysis of the deposited data

How the results depend on the processing

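Across 53 alternative settings for the shares, the median and the density, 46 values moved by less than their counting error and 7 by more. Among the 46, TSSs of protein-coding transcripts alone lowered the flanking share from 8.97% to 3.85%, level with the 3.83% over all protein-coding genes. RefSeq TSSs lowered the promoter share to 32.1% (21.9% to 43.6%), an interval that includes the 23.7% over all genes. With only peaks of −log10 p of at least 10, a promoter peak remained in 2.56% of the members (2.71% of all protein-coding genes), a flanking peak in 0% (0.592%), a gene body peak in 2.56% (1.39%) and any peak in 3.85% (4.53%). The median of promoter peaks was then 10.50 and the density 0.193 gene body peaks per Mb. That setting leaves 2 promoter peaks, and in 3 of the 4 shares the members were then below all genes. With the 5′ end as the only TSS, an alternative chosen after seeing the data, the promoter share was 29.5%. Leaving out the Slitrk, Ntng and Unc5cl genes gave a promoter share of 43.5%, and leaving out Unc50 as well, also chosen after seeing the data, gave 42.6%. No paired analysis was possible because the series has 1 TET2 library and 1 input library. Whether the same peaks would recur in another library is unknown, and single peaks near the lower end of the list are the least certain.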
